A study of Mus musculus with 4 samples.

Results

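The cells described here were late neutrophils of the tibia, 563 of the 14181 barcodes of a 10x Genomics single-cell RNA-seq library. They were selected on measured values: barcodes with at least 500 genes and at most 10% mitochondrial UMIs (unique molecular identifiers, each standing for 1 captured transcript) were taken when Retnlg reached 20 UMIs per 10000 UMIs of the cell while Elane stayed under 10 and both Col1a1 and Col2a1 under 50. Retnlg, Elane and the collagen genes therefore describe the choice and are no result. The library came from the pooled cells of both tibiae of 1 male mouse at postnatal day 6 (P6), genotype Col10a1Cre;Rosa26-Tdtomato;Irx3 +/Δ;Irx5 +/-, a heterozygous control in the labels. Cre was driven by Col10a1, a gene of hypertrophic chondrocytes (HCs), so that the tdTomato reporter marks HCs and their descendants; the mouse had no treatment and no other genotype was at hand to compare. The deposited counts pool the 4 sequencing entries into 1 library from 1 mouse, so no value has a replicate and none has a test. Intervals at 95% are exact Poisson for CPM and Clopper-Pearson for shares, while those of log2 ratios are approximate and symmetric on the log2 scale. All of them cover counting error only.

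Neutrophils are made in bone marrow from promyelocytes, which fill azurophil granules with enzymes such as myeloperoxidase, through myelocytes, which divide and fill specific granules with proteins such as lactoferrin, to non-dividing band and segmented cells, which make gelatinase granules, receptors for chemoattractants and the machinery of migration. Each set of granule genes is transcribed for a limited time, so the transcripts present in a cell mark how far it has come. Retnlg encodes a resistin-like secreted protein known from late stages of this series.

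The late neutrophils held 2485775 UMIs in all, with a median of 3285 UMIs (877 to 21033) and 1045 genes (536 to 4579) per cell. They were the shallowest of the myeloid classes compared here. Myelocytes, taken as cells with at least 50 Ngp, under 20 Retnlg and under 10 Elane UMIs per 10000, numbered 551 with a median of 10686 UMIs and 2410 genes. Promyelocyte-like cells, with at least 10 each of Elane and Mpo, numbered 368 with a median of 16402 UMIs. Monocytes, with at least 5 Ly6c2 and 2 Ccr2, numbered 167 with a median of 8415. The classes did not overlap. Cells that met the limits of late neutrophils were in none of the other classes, and cells that met those of myelocytes were not counted as monocytes. At an equal depth of 1000 UMIs per cell the median was 458 genes in late neutrophils and 436 in myelocytes, against 510 in promyelocyte-like cells and 600 in monocytes. At equal depth the late neutrophils thus held no fewer genes than the myelocytes.

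Of the 10706 barcodes that passed the limits on genes and mitochondrial UMIs, 1400 held a Retnlg UMI, 603 reached the Retnlg minimum, and the Elane, Col1a1 and Col2a1 limits then removed 1, 9 and 30 of these. The members were 5.26% of the 10706 (4.84% to 5.70%). The study itself kept cells with 1600 genes or more to study endochondral cells, and it also left out clusters with Ptprc, the leukocyte antigen CD45, which was found in 87.9% of the members. Under the gene minimum alone 89 of the 563 members (15.8%, 12.9% to 19.1%) would remain, against 86.0% of the myelocytes and 98.4% of the promyelocyte-like cells. As a share of the 3 granulocyte classes, late neutrophils made up 38.0% of 1482 cells with 500 genes and 9.62% of 925 cells with 1600 genes, so the make-up of the granulocytes followed the gene minimum.

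Retnlg in the members ranged from 20.1 to 580 per 10000 UMIs with a median of 163, and 9 members had under 5 Retnlg UMIs. The 31 members just inside the limit, at 20 to 25 per 10000, had 27108 UMIs per 1000000 (CPM) of Ngp, 27603 CPM of Camp and 394 CPM of Mmp8. The 26 cells just outside, at 15 to 20, had 26429, 28610 and 177 CPM. Both sides of the limit held cells with high granule transcripts, with somewhat more Mmp8 inside. Retnlg lies at chr16:48872621-48874496 and Mmp8 at chr9:7558456-7568485, both on the plus strand (mm10, 1-based).

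The stretches of 250 bases before the RefSeq start sites of 4 genes are shown, each standing for a set that the results follow. Ltf stands for specific granules and Mmp8 for the list of gelatinase granule and degradation genes. Retnlg stands for the choice of the cells, and Il1b for the genes that were highest in the members with the least Ngp. Capitals mark matches to TTGCNNAA, a simplified form of the site bound by C/EBP factors, which direct granulopoiesis, or to its reverse complement TTNNGCAA. The build is GRCm38.p6 and the sequences are from RefSeq. The positions are chr9:111019042-111019291 (plus strand) for Ltf, chr9:7558179-7558428 (plus) for Mmp8, chr16:48872358-48872607 (plus) for Retnlg, and chr2:129371140-129371389 (minus) for Il1b.
Ltf: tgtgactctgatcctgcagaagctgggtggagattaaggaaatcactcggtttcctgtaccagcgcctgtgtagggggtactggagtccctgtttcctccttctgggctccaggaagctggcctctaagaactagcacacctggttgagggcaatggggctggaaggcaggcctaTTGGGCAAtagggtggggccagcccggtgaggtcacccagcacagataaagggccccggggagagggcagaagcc
Mmp8: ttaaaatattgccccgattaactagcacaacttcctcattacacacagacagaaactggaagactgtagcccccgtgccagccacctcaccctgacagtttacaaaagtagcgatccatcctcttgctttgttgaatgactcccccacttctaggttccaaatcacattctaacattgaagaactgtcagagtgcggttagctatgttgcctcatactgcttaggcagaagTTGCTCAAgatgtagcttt
Retnlg: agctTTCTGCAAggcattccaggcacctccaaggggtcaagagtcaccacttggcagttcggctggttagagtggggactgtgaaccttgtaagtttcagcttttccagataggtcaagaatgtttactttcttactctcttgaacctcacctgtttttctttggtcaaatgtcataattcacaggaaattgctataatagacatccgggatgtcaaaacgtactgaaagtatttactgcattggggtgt
Il1b: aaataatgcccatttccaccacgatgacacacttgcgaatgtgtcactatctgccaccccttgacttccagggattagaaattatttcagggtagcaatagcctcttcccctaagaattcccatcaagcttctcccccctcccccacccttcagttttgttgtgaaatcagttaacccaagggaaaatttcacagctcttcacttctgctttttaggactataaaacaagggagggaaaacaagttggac
The match began 75 bases before the start site in Ltf, 19 in Mmp8 and 246 in Retnlg, and the Il1b stretch held none. Of all 32851 stretches of this length, 9.56% held a match. Among listed genes with an entry, 4 of 12 specific granule genes and 4 of 8 gelatinase granule and degradation genes held one. So did 3 of 23 receptor genes, 0 of 11 azurophil granule genes and 0 of 11 cytokine genes. A listed gene counted if any of its stretches held a match, while the 9.56% is per stretch, so the rates are not like for like. A match describes the letters only and is not evidence of a bound site.

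The label was checked against markers before the comparisons. All 8 late neutrophil markers, Retnlg among them, reached 10 CPM in the members, but so did 8 of 8 in myelocytes and 7 of 8 in monocytes, so this count does not tell the classes apart. S100a8 and S100a9, the subunits of the calcium-binding protein calprotectin, were found in every member, with medians of 678 and 986 UMIs per 10000 and pooled levels of 59345 and 85931 CPM. Together with the other S100 genes listed they made 15.1% of all UMIs of the members. Mmp8, neutrophil collagenase, was found in 486 of 563 members (86.3%) at a median of 11.2 per 10000, and 70.8% of the Mmp8 UMIs of the 10706 cells lay in the members. S100a8 and S100a9 do not separate the members from myelocytes, where they stood at 75456 and 104443 CPM. Mmp8 does, since 11.8% of myelocytes had a UMI. All 6 myelocyte markers, Ngp among them, reached 10 CPM in the members and summed to 45872 CPM, against 104033 CPM in myelocytes. Of the members, 284 also met the Ngp minimum of the myelocytes, so the members include cells rich in myelocyte transcripts. Of the other lists, 5 of 6 basophil or mast cell markers were at 0, the 5 eosinophil markers summed to 8.45 CPM with 1 of them at 0, and the 5 promyelocyte markers summed to 72.4 CPM, with Mpo the most abundant at 22.1 CPM and with Elane, which the choice limited, at 10.1 CPM.

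**Figure D1:**
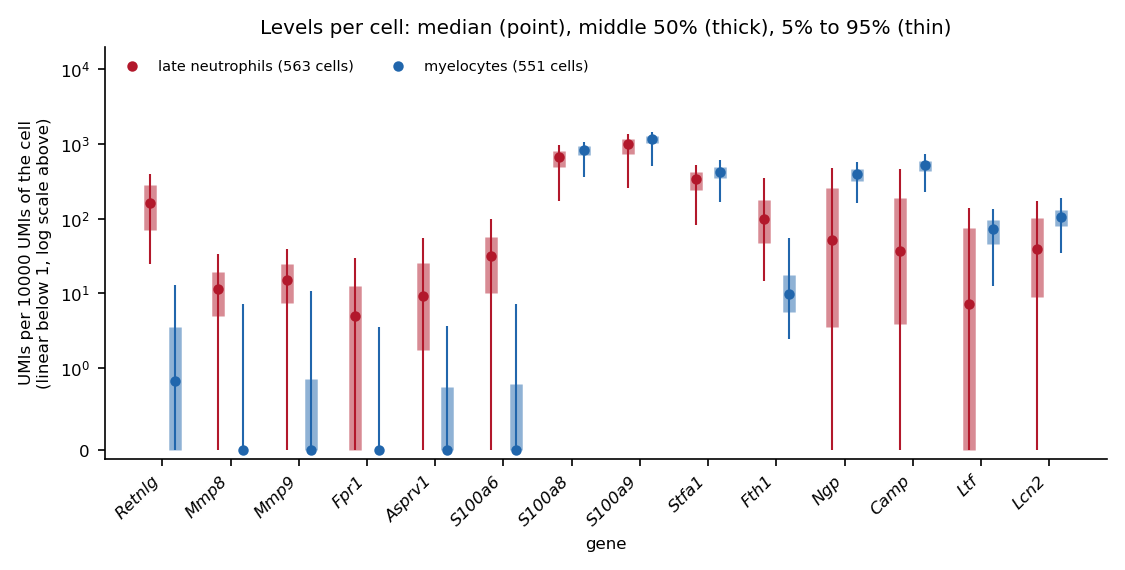
Levels of 14 genes per cell in late neutrophils (563 cells, red) and myelocytes (551 cells, blue), as UMIs per 10000 UMIs of the cell on a scale that is linear below 1 and logarithmic above; the point is the median, the thick bar the middle 50% of cells and the thin line 5% to 95%. S100a8, S100a9 and Stfa1 overlapped between the classes, Mmp8 and Mmp9 were near 0 in most myelocytes, and Ngp, Camp and Ltf spread from 0 to the myelocyte range in late neutrophils.

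Transcripts of other cell types were present. The 8 erythroid markers, all at 10 CPM or more, summed to 30632 CPM in the members and 9894 CPM in myelocytes, with Hbb-bs, adult β-globin, the most abundant at 16817 CPM. Of the 75209 haemoglobin UMIs in members, 72.6% lay in 10 cells, and the median member had 14.8 per 10000. The 9 bone, cartilage or stroma markers summed to 3160 CPM in members, 1574 CPM in myelocytes and 40339 CPM in all other cells, led by Col2a1 at 1089 CPM in members. The limits on Col1a1 and Col2a1 in the choice of members and myelocytes partly set these levels. Among the 8 B cell markers, led by Ebf1 at 82.1 CPM, 6 reached 10 CPM and their sum was 260 CPM in members and 169 CPM in myelocytes, and the 5 endothelial markers summed to 130 and 90.2 CPM. The 7 T or NK cell markers summed to 78.0 CPM with 4 at 0 and Cd3d making 74.8 CPM in 25.9% of members, the 5 platelet markers to 49.1 CPM, led by Pf4, and the 5 osteoclast markers to 40.2 CPM, led by Acp5. The 10 monocyte or macrophage markers summed to 772 CPM in members and 648 CPM in myelocytes, with Ly6c2 the most abundant at 419 CPM in members. Their sum of 3068 CPM in monocytes is partly set by the choice of those cells by Ly6c2 and Ccr2. Markers of B cells, endothelium, C1q macrophages or pericytes, or haemoglobin at 100 per 10000, were reached by 47 members and 40 myelocytes. For the comparison with myelocytes, the numbers of higher and lower genes of a list without these cells are given where they differ. No such numbers are given for the other comparisons. The part of other cells that fall below these limits was not tested.

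The question put to the data was which genes set late neutrophils apart from myelocytes. Most listed genes of gelatinase granules, receptors for migration and recognition, cytokines, and cell survival and death were at least 2-fold higher in late neutrophils, whereas all listed cell cycle genes, 5 of 11 azurophil granule genes and the factor Cebpe were lower. Of 6973 genes with at least 10 CPM in either class, 970 (13.9%) were at least 2-fold higher and 791 (11.3%) at least 2-fold lower in late neutrophils, on the scale of CPM with 1 added, with a median log2 ratio of -0.05. These shares are the background for the lists that follow. Without the cells that carried markers of another type, 978 of 6599 genes (14.8%) were higher and 1036 (15.7%) lower, which is the background for the counts given without those cells. S100, stefin A and specific granule genes together with Ngp took 29.8% of the UMIs of late neutrophils and 39.1% of those of myelocytes. When they were left out of the totals, the median log2 ratio of all genes moved by -0.22, and 850 genes were higher and 1356 lower. In cells with 1600 genes or more the median moved by 0.34, with 1577 genes higher and 267 lower, and the ratios of the summed lists were smaller for gelatinase genes (1.27), receptors (1.09) and cell cycle genes (-0.73) than the values given below for all members.

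**Figure D2:**
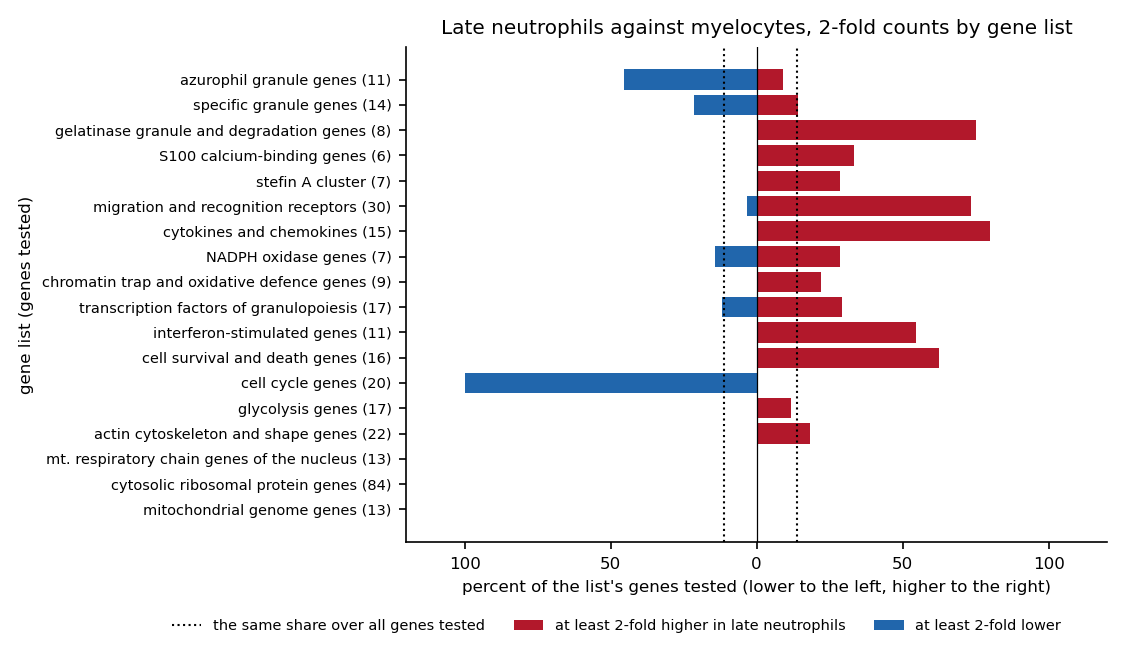
Percent of the genes tested in each of 18 lists that were at least 2-fold higher (red, to the right) or lower (blue, to the left) in late neutrophils than in myelocytes; dotted lines mark the shares over all 6973 genes tested, 13.9% higher and 11.3% lower, and the number of genes tested stands beside each list. All 20 cell cycle genes lie to the left, and 12 of 15 cytokine and 22 of 30 receptor genes to the right.

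Azurophil granule genes belong to the promyelocyte. Of 11 tested, 5 were at least 2-fold lower than in myelocytes and 1 was higher. Prtn3, proteinase 3, stood at 17.7 CPM against 196 CPM in myelocytes and 8548 CPM in promyelocyte-like cells. Ms4a3, a membrane protein of early granulocytes, had 17.7, 182 and 1088 CPM in the same order, and Serpinb1a, an inhibitor of neutrophil proteases, 178, 691 and 484 CPM. Mpo, myeloperoxidase, was at 22.1 CPM (16.7 to 28.8) in late neutrophils and 22.4 CPM (18.9 to 26.4) in myelocytes, within counting error of each other. The member that was higher, Srgn, encodes serglycin, a proteoglycan that packs granule contents, at 2921 against 283 CPM, and it alone carried the list's sum to 3724 CPM in late neutrophils and 2029 CPM in myelocytes. The median log2 ratio of the list was -0.48, opposite in sign to that of its sum, 0.88.

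Specific granule genes summed to 36290 CPM in late neutrophils and 77729 CPM in myelocytes, a log2 ratio of -1.10 (-1.11 to -1.09). The myelocytes were chosen by a minimum of Ngp and the members were not, so genes that go with Ngp are higher in myelocytes by the choice, and the members of the highest of 4 Ngp groups summed to 78155 CPM and those of the lowest to 4781 CPM. Members with Ngp under 50 per 10000 alone gave a log2 ratio of -3.42. Of the 14 genes, 3 were at least 2-fold lower and 2 higher. Camp, the cathelicidin antimicrobial peptide, had 15767 CPM (15611 to 15923) against 49173 CPM (49003 to 49344). Chil3, a chitinase-like protein, had 836 against 3282 CPM, and Orm1, an acute-phase protein, 29.4 against 73.0 CPM. Others of the group had smaller differences: Ltf, lactoferrin, stood at 4700 against 6218 CPM and Lcn2, the iron-siderophore binder lipocalin 2, at 6764 against 9446 CPM, with log2 ratios of -0.40 and -0.48. The 2 higher genes were Ceacam10, of a family of adhesion molecules, at 110 against 33.3 CPM, and Adam8, a membrane protease that also stands in the gelatinase list, at 331 against 36.0 CPM. Outside the lists, Fcnb, ficolin B, a lectin of the innate immune system, had the lowest ratio of the genes ranked (at least 100 CPM and 100 UMIs in either class), at 57.9 against 719 CPM, a log2 ratio of -3.61 (-3.85 to -3.38).

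Gelatinase granule and degradation genes ran the other way, with 6 of 8 at least 2-fold higher and none lower (7 and 0 without cells that carried other markers), and with a sum of 4844 against 1214 CPM, 3.99-fold higher, with a log2 interval of 1.95 to 2.04. Mmp8, a collagenase counted in this list, had 1142 CPM (1101 to 1185) in late neutrophils and 52.1 CPM (46.7 to 57.9) in myelocytes. Mmp9, gelatinase B, had 1361 CPM (1316 to 1408) and 113 CPM (105 to 122). Mmp8 went with Retnlg, at 177 CPM in cells with 15 to 20 Retnlg per 10000, outside the members. It had 475 CPM in members at 20 to 50 and 1371 CPM at 50 and more, so its difference is partly set by the choice. Slc11a1, a metal transporter of phagosomes, stood at 76.4 against 7.84 CPM. Itgam, the integrin αM chain, and Plaur, the urokinase receptor, at log2 ratios of 0.91 and 0.64, stayed under 2-fold. At an equal 1000 UMIs per cell, Mmp8 was found in 62.6% of late neutrophils (58.4% to 66.6%), 5.08% of myelocytes, 4.79% of monocytes and 0.245% of haemoglobin-rich cells, which should lack it. Mmp9 was found in 71.3% of late neutrophils, 10.3% of myelocytes and 0.816% of haemoglobin-rich cells. The unthinned shares in late neutrophils were 86.3% and 93.8%. The difference in Mmp8 and Mmp9 was thus present at equal depth.

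**Figure D3:**
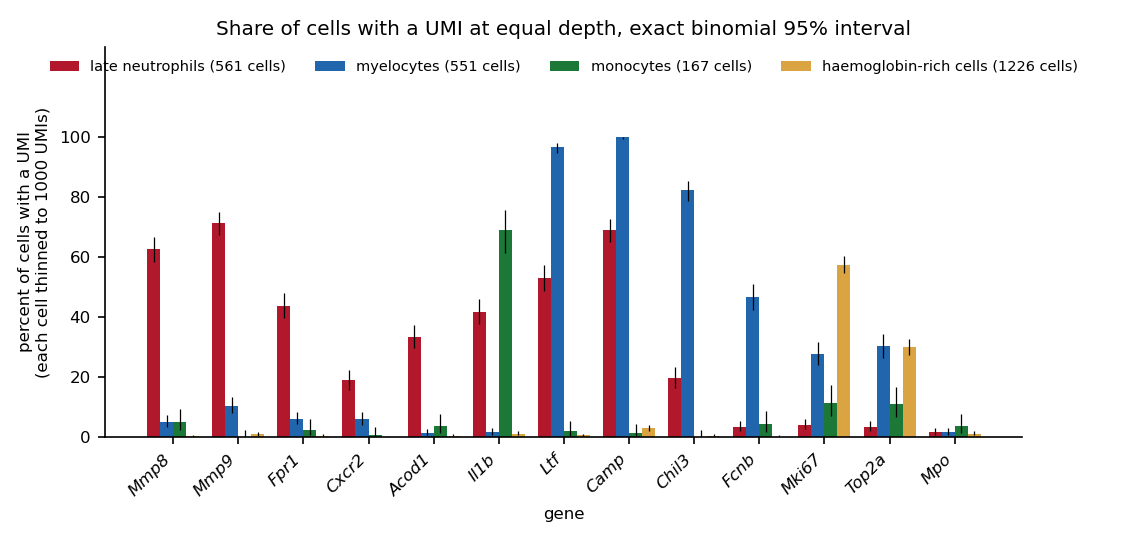
Percent of cells with at least 1 UMI of each gene after thinning each cell to 1000 UMIs, in late neutrophils (561 cells), myelocytes (551), monocytes (167) and haemoglobin-rich cells (1226), with exact binomial 95% intervals as black lines. Mmp8 was found in 62.6% of late neutrophils and 5.08% of myelocytes, and Chil3 in 19.6% and 82.2%.

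Receptors for migration and recognition were at least 2-fold higher in 22 of 30 genes and lower in 1 (23 and 1 without cells that carried other markers), with a sum of 9812 against 3002 CPM. Fpr1, the receptor for formylated bacterial peptides, had 674 CPM (642 to 707) against 47.5 CPM (42.3 to 53.1). Cxcr2, which guides neutrophils out of the marrow, had 170 against 55.9 CPM, and Cxcr4, which retains them there, 235 against 76.1 CPM. The receptors of marrow exit and retention were thus higher in the same class. Csf3r, the G-CSF receptor, stood at 195 against 33.2 CPM, Il1r2, the decoy receptor of interleukin 1, at 819 against 93.4 CPM, and Clec4d, a C-type lectin, at 793 against 23.1 CPM. Fcgr2b, the inhibitory Fcγ receptor, was the gene that was lower, at 11.3 against 29.5 CPM, and Ltb4r1, a leukotriene B4 receptor, stood at 298 against 377 CPM.

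Of the 15 cytokine and chemokine genes, 12 were at least 2-fold higher and none lower, and their sum was 6770 against 2444 CPM. The list also holds Wfdc21 and Wfdc17, secreted proteins of the whey acidic protein family that are no cytokines, and Wfdc21, at 1862 against 1898 CPM, made most of the myelocyte sum. Il1b, interleukin 1β, had 959 CPM (921 to 999) against 49.3 CPM (44.1 to 55.0), and Il1rn, its receptor antagonist, 310 against 22.7 CPM. Cxcl2, a ligand of Cxcr2, stood at 2238 against 221 CPM, Ccl6 at 391 against 10.8 CPM, and Prok2, a secreted prokineticin, at 114 against 2.31 CPM. At 1000 UMIs per cell Il1b was found in 41.7% of late neutrophils (37.6% to 45.9%), 1.45% of myelocytes and 1.06% of haemoglobin-rich cells. Acod1, the mitochondrial enzyme that makes itaconate, had the highest ratio of the genes ranked, at 495 against 7.07 CPM, a log2 ratio of 5.94 (5.57 to 6.32), followed by Cyp4f18, an enzyme that breaks down leukotriene B4, at 228 against 4.46 CPM.

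Genes of cell survival and death were higher in 10 of 16 tested and lower in none, or in 9 and 2 without cells that carried other markers. G0s2, an inhibitor of fat breakdown listed with them, made the largest share of the sum, at 1690 against 300 CPM. Mcl1, the survival factor on which neutrophils depend, had 996 against 350 CPM, Btg1, an antiproliferative gene, 1444 against 300 CPM, and Bcl2l11, the pro-death factor Bim, 253 against 51.0 CPM. The list thus held genes of both directions, and survival and death factors were higher together. Bcl2a1a, Bcl2a1b and Bcl2a1d were also higher, at 62.8, 313 and 68.0 CPM in late neutrophils, but are near-identical copies whose reads the counting may split.

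All 20 cell cycle genes were at least 2-fold lower, with a sum of 3373 against 9671 CPM and a log2 ratio of -1.52 (-1.55 to -1.49). Top2a, DNA topoisomerase IIα, had 97.8 against 397 CPM, Rrm2, a subunit of ribonucleotide reductase, 62.4 against 341 CPM, and Mki67, the proliferation antigen, 134 against 357 CPM. At 1000 UMIs per cell Top2a was found in 3.39% of late neutrophils and 30.1% of myelocytes. Without the members that carried markers of another cell type, Top2a and Mki67 each stood at 66.6 CPM and Rrm2 at 36.8 CPM in late neutrophils. Mki67 was found in 57.4% of thinned haemoglobin-rich cells, and the part of such cells in the remaining level was not tested.

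Of 17 transcription factors of granulopoiesis tested, 5 were at least 2-fold higher and 2 lower, or 8 and 3 without cells that carried other markers. The 2 lower are a share near the background of 11.3%. Cebpe, the factor of specific granule formation, had 175 CPM (159 to 192) against 574 CPM (555 to 592), and Gfi1, a repressor needed earlier in the series, 4.83 against 14.9 CPM from 12 UMIs. Higher were Mxd1, an antagonist of Myc, at 1048 against 219 CPM, Junb at 940 against 185 CPM, Cebpb at 1249 against 580 CPM, Fosl2 at 156 against 58.5 CPM and Rara, a retinoic acid receptor, at 42.2 against 5.53 CPM. The sum of the list was higher by 0.88 on the log2 scale.

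Among S100 genes 2 of 6 were at least 2-fold higher (3 of 6 without cells that carried other markers), S100a6 at 2701 against 131 CPM and S100a11 at 2989 against 900 CPM, so the median log2 ratio was 0.58 while that of the sum, most of which is S100a8 and S100a9, was -0.26. The stefin A genes, a cluster of cysteine protease inhibitors on chromosome 16, made 9.32% of UMIs in late neutrophils and 9.64% in myelocytes. Stfa2 had 6449 against 2706 CPM and BC117090 260 against 102 CPM, and the other 5 genes stayed under 2-fold. The last 300 bases of the stefin transcripts were 54.6% to 98.7% identical between pairs, with Stfa1 and BC100530 at the upper end, so that the split of counts between these 2 is uncertain. For this list the sign of the summed ratio, -0.05, depended on the setting, being 0.05 without cells that carried other markers, -0.25 with totals lacking the abundant genes, -0.57 in members with Ngp under 50 and -0.69 with 1600 genes per cell.

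Of NADPH oxidase genes, which make the respiratory burst, 2 of 7 were higher, among them Ncf1 at 872 against 319 CPM, and Hvcn1, a proton channel, was lower at 6.44 against 26.7 CPM. The summed log2 ratio of this list was -0.02, and its sign depended on the setting, from -0.32 to 0.06. Among the 9 genes of chromatin traps and oxidative defence, Fth1, the ferritin heavy chain, had 10376 against 1789 CPM and Padi4, which citrullinates histones, 80.1 against 24.1 CPM, with none lower. Interferon-stimulated genes were higher in 6 of 11 and lower in none, with Ifitm1 at 113 against 6.45 CPM and Ifitm3 at 693 against 259 CPM, while Isg15, at 9.65 CPM, rested on 24 UMIs, 9 of them in 1 cell. In the actin list 4 of 22 were higher, among them Lmnb1, lamin B1, at 848 against 231 CPM and Lsp1, a leukocyte actin-binding protein, at 414 against 89.7 CPM. Of 17 glycolysis genes, the glucose transporters Slc2a1 and Slc2a3 were higher, the latter at 305 against 88.7 CPM, and no enzyme differed by 2-fold. The actin and glycolysis counts of higher genes, 4 of 22 and 2 of 17, lie near the background of 13.9%, although the actin count was 7 of 22 without cells that carried other markers.

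No ribosomal protein gene, nuclear respiratory chain gene or mitochondrial gene tested differed by 2-fold from myelocytes when all members were pooled. Ribosomal protein genes made 7.17% of UMIs in late neutrophils and 10.1% in myelocytes, a log2 ratio of -0.50 (-0.51 to -0.49), with 0 of 84 genes past 2-fold and 9 lower without cells that carried other markers. In cells with 1600 genes or more the ratio reversed to 0.22. The 13 nuclear genes of the respiratory chain had a summed log2 ratio of -0.29 and the 13 genes of the mitochondrial genome of -0.23, with 0 past 2-fold in both lists, and these too turned to 0.14 and 0.13 in cells with 1600 genes. For the 3 lists the direction is therefore not settled by these data.

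Against promyelocyte-like cells 1740 of 7615 genes (22.8%) were higher and 2428 (31.9%) lower, with a median log2 ratio of -0.28. Ribosomal protein genes took 31.5% of promyelocyte-like UMIs, and 83 of 84 were at least 2-fold lower in late neutrophils. All 7 stefin and all 8 gelatinase genes tested, and 12 of 14 specific granule genes, were higher in late neutrophils, with none lower in these 3 lists. Cell cycle genes were lower in 16 of 20, and 6 of 10 azurophil genes were lower, Mpo being left out because it chose the promyelocyte-like cells. NADPH oxidase genes were higher in 4 of 7.

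Monocytes share the marrow and many functions with neutrophils, and this comparison asks which of the late genes are neutrophil genes. Of 7643 genes tested, 913 (11.9%) were higher in late neutrophils and 2487 (32.5%) lower, with a median log2 ratio of -0.58. Of the 970 genes higher than in myelocytes, 479 (49.4%) were within 2-fold of monocytes and 354 (36.5%) were at least 2-fold over them. A further 136 were at least 2-fold under, and Ccr2, which chose the monocytes, was not compared. No background is given for the 49.4%, so it does not show that late genes are shared with monocytes more often than other genes. The 36.5% stands against 11.9% of all genes tested. Both comparisons use the same late neutrophil levels, so these 2 shares are not like for like. Ccl6 had 391 CPM in late neutrophils and 317 CPM in monocytes, Clec4d 793 and 627 CPM, and Thbs1, thrombospondin 1, 6108 and 6390 CPM. Il1b was higher in monocytes, at 4265 CPM, as was Cxcl2 at 7722 CPM, and of the 15 cytokine genes 7 were lower and 2 higher in late neutrophils.

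The genes that stood apart from all classes compared numbered 339, at least 2-fold over each of the other 3. No share is given, since the number of genes tested in all 3 comparisons is not at hand. Cells that met the Retnlg minimum and the other limits of late neutrophils were in none of these 3 classes. Genes that go with Retnlg, such as Mmp8, are therefore over all 3 partly by the choice. Mmp9 had 9.52 CPM in monocytes, Fpr1 18.5 CPM, Cxcr2 2.24 CPM and Asprv1, a retroviral-like aspartic protease, 3.92 CPM against 1141 CPM in late neutrophils and 53.6 CPM in myelocytes. Mmp8 had 66.6 CPM (55.2 to 79.7) in monocytes. Ly6g, which encodes the surface antigen used to sort mouse neutrophils, had 284 CPM in late neutrophils, 84.4 CPM in myelocytes and no UMI in monocytes, where 3 UMIs would be 1.68 CPM, so it was at least 169-fold higher. Ltf, Camp and Lcn2, at 5.04, 30.8 and 24.6 CPM in monocytes, were among the 10 genes with the highest ratios over monocytes alone, as were Stfa2, BC100530 and Gm5483 of the stefin cluster. Of these, Ltf, Camp, Lcn2, BC100530 and Gm5483 were not 2-fold higher than in myelocytes and so are not among the 339. Cells that met the myelocyte limits, a minimum of Ngp among them, were not counted as monocytes. Ltf, Camp and Lcn2 go with Ngp, so their ratios over monocytes are partly set by the choice. Ribosomal protein genes were lower than in monocytes in 80 of 84 and cell cycle genes in 14 of 20.

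**Figure D4:**
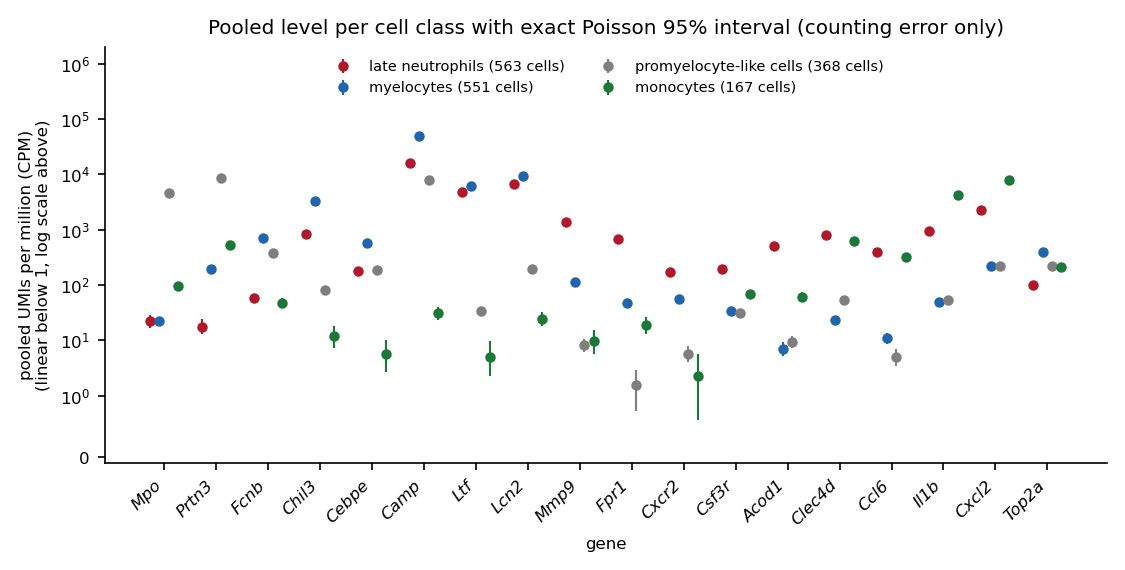
Pooled levels of 18 genes in late neutrophils, myelocytes, promyelocyte-like cells and monocytes, in UMIs per 1000000 (CPM) on a scale that is linear below 1 and logarithmic above; vertical lines are exact Poisson 95% intervals, often smaller than the points. Mpo and Prtn3 peak in promyelocyte-like cells, Fcnb, Chil3, Cebpe and Camp in myelocytes, Mmp9, Fpr1, Cxcr2, Csf3r and Acod1 in late neutrophils, and Il1b and Cxcl2 in monocytes. The peak of Mpo is set by the choice of the promyelocyte-like cells.

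The members varied widely among themselves in Ngp, neutrophilic granule protein, which the choice did not use. Ngp ranged from 0 to 664 per 10000, with 284 members at 50 or more, 279 under 50 and 130 without a UMI. The members were put in 4 groups of nearly equal size by Ngp. Depth moved with it: the median UMIs per cell were 2168, 2584, 3519 and 5301 from the lowest to the highest group. The groups are a description, and genes that share granules with Ngp follow it by construction of the order. The values below leave out the 47 members with markers of another cell type, since Hbb-bs in all members stood at 24937, 40105, 10522 and 642 CPM from the lowest to the highest group. This left 127, 121, 129 and 139 cells.

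Specific granule transcripts were far lower in the members with little Ngp. Camp went from 37957 CPM through 11188 and 2071 to 370 CPM, and Ltf from 10908 through 4124 and 305 to 57.8 CPM. Lcn2 had 13720 and 662 CPM at the ends, Chil3 2339 and 14.4 CPM, and Cebpe 372 and 20.2 CPM. Fcnb had 174 CPM in the highest group and 0 UMIs in the lowest. In myelocytes without cells of other markers Ltf had 6645 CPM, Cebpe 617 CPM and Fcnb 767 CPM, so the highest group stood over them in Ltf and under them in Cebpe and Fcnb. Ltf was present in 100% of its cells and in 12.6% of the cells of the lowest group.

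Other genes followed the opposite order. Il1b had 79.2 CPM in the highest group, then 605, 2270 and 2380 CPM, Ccl6 22.3, 280, 980 and 1112 CPM, and Acod1 64.3, 426, 1003 and 1369 CPM. The share of cells with an Il1b UMI was 12.2% in the highest and 91.3% in the lowest group, though the lowest group was the shallower. Csf3r had 70.5 and 517 CPM at the ends, Cxcr4 103 and 503 CPM, Nlrp3, the inflammasome sensor, 30.9 and 745 CPM, and Fth1 4129 and 18044 CPM. Among the 1185 genes ranked, those with the highest ratio of lowest over highest group were Cd274, the ligand PD-L1, at 165 against 1.24 CPM, and Ccl6. Pla2g7, the lipoprotein-associated phospholipase, was also among the 10 highest, at 332 against 8.66 CPM. Il1b and Ccl6 were thus higher in the members with little Ngp. Csf1r, the receptor of macrophage colony-stimulating factor, was also lowest in the highest group, at 8.66 CPM, then 78.8, 177 and 162 CPM, Ly6c2 had 602, 518, 348 and 217 CPM, and C1qa had at most 2.85 CPM in any group. Mpeg1 and Zeb2, genes also found in macrophages and monocytes, were among the 20 genes with the highest ratios. Il1b, Ccl6 and Nlrp3 were high in monocytes too, at 4265, 317 and 582 CPM, and the part of monocyte transcripts in this order was not tested.

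Mmp8 and Mmp9 followed neither order, and the other genes of the gelatinase list were not described by group, except Mmp25 with too few UMIs. With groups counted from the lowest, Mmp8 had 1223 CPM in the highest group, 1740 in the third, 1216 in the second and 737 in the lowest, and Mmp9 1184, 2039, 1769 and 1364 CPM. Fpr1 had 549, 938, 863 and 818 CPM. Retnlg itself, in which the choice set a minimum, had 10173, 25922, 22608 and 12636 CPM. Cxcr2 was also highest outside the ends, at 299 CPM in the second group against 110 CPM in the highest and 196 CPM in the lowest. S100a8, at 82384, 69380, 59040 and 41950 CPM, and S100a9 went down with Ngp. Ribosomal proteins went up, from 4.93% of UMIs in the highest group to 8.49% in the lowest.

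**Figure D5:**
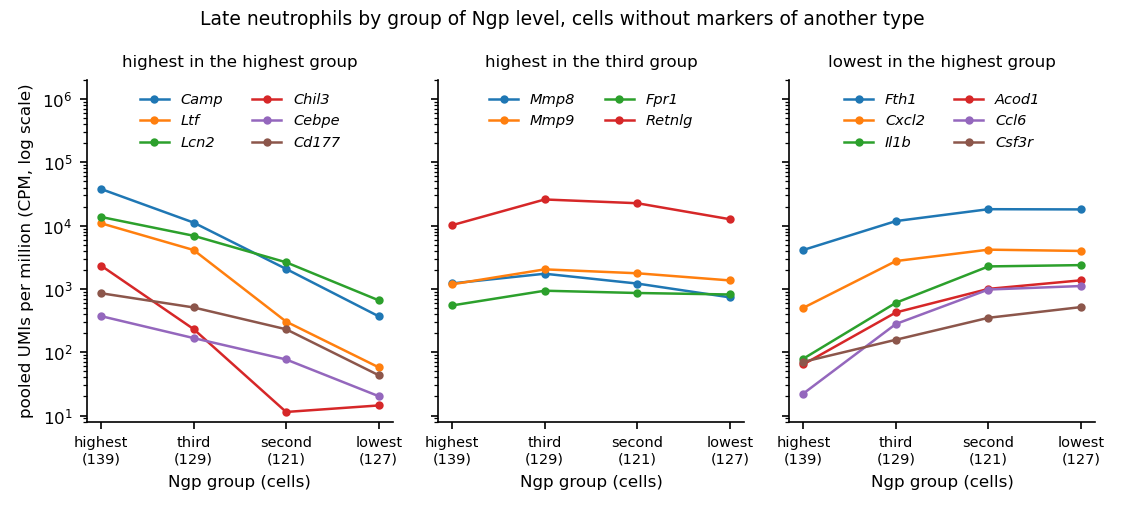
Pooled levels (UMIs per 1000000, log scale) of 16 genes in the 4 groups of late neutrophils by Ngp level, from the highest on the left to the lowest on the right, without the 47 cells with markers of another type; cell numbers stand under the axis. Camp, Ltf, Lcn2, Chil3, Cebpe and Cd177 are highest in the highest group, Mmp8, Mmp9, Fpr1 and Retnlg in the group plotted next to it, which is the third from the lowest, and Il1b, Acod1, Ccl6, Csf3r, Cxcl2 and Fth1 are lowest in the highest group.

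The study was about matrix metalloproteinases (MMPs) in HC descendants. Of these genes Mmp8 and Mmp9 were the most abundant in late neutrophils, which held 70.8% of all Mmp8 UMIs and 15.1% of all Mmp9 UMIs of the 10706 cells. Mmp25, a membrane-anchored leukocyte MMP, had 21 UMIs in members, 17.5% of its UMIs, and at 1000 UMIs per cell was found in 1.96% of members and in none of 551 myelocytes or 1226 haemoglobin-rich cells. Mmp27, another MMP, had 7 of its 28 UMIs in members. Mmp14, the membrane-anchored enzyme of the study, had 100 UMIs, 39 of them in 1 cell, and at 1000 UMIs per cell was found in 1.96% of members (0.983% to 3.48%) and 1.31% of haemoglobin-rich cells (0.748% to 2.11%). Mmp13, collagenase 3, was found in 4.10% (2.62% to 6.09%) and 2.28% (1.52% to 3.28%). For both genes the intervals overlapped those of a class that should lack them. Timp2, an MMP inhibitor, had 220 CPM in members and 16.8 CPM in haemoglobin-rich cells. Its share of members with a UMI, 60.2%, was not taken at equal depth.

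No member reached the reporter level of an HC descendant. WPRE, the element in the tdTomato transcript that the study counted, had a UMI in 70 members (12.4%, 9.82% to 15.4%) at a median depth of 3285 UMIs and in 9.71% of haemoglobin-rich cells (8.11% to 11.5%) at 8255 UMIs, and the highest member held 5 UMIs. The study's limit for HC descent, WPRE over 14, was taken here as raw UMIs. Above it there were 0 of 563 members. This allows a share of up to 0.533% by the limit of 3 counts and 0.653% by the Clopper-Pearson bound. There were 3 of 551 myelocytes, 2 of 368 promyelocyte-like cells, 0 of 167 monocytes and 420 of the 9057 cells outside the myeloid classes. The limit was not scaled to depth here, and the median depth was 3285 UMIs in members and 11263 in those 9057 cells. Irx3 had 7 and Irx5 2 UMIs in members, too few to describe.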

How the data were processed

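The authors deposited counts of UMIs per gene and barcode, made with Cell Ranger 3.1.0 on mm10 (Seurat 3 is also named in the submitters' processing notes). The annotation release was not given in the sources used here. A deposited count table of 98 exogenous sequences was joined by barcode. Of 31053 gene IDs, 30934 matched GENCODE M21 (GRCm38). The P56 sample was not analysed here.

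Python 3.11.15 with numpy 2.4.6, scipy 1.17.1, pandas 2.3.3, scanpy 1.11.5, Biopython 1.88 and matplotlib 3.10.9 was used. UMIs were summed per class and scaled to 1000000 (CPM). Log2 ratios had 1 CPM added and genes needed 10 CPM in either class. With 1 library there was no test. For shares, cells were thinned to 1000 UMIs, shallower cells left out. Haemoglobin-rich cells had at least 2000 Hba-a1 and Hbb-bs UMIs per 10000. Cells with markers of another type had at least 3 UMIs and 10 per 10000 of a list, or haemoglobin at 100 per 10000. The ratio step was tested on simulated data.

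Genes named were those of the 18 gene lists and 13 marker lists, the 20 highest in CPM, the 10 with the largest ratios over and under myelocytes and over monocytes (at least 100 CPM and 100 UMIs), the Mmp, reporter and Irx genes, and leaders of the Ngp groups, chosen after their values were seen (1185 genes with 100 CPM, 50 UMIs and 25% of cells in an outer group). The members and lists were chosen with earlier results of these data known. Scrublet, at an expected rate of 10%, marked 588 barcodes, 31 of them members. They were kept. Alternatives covered the Retnlg minimum, gene number, mitochondrial limit, doublets, averaging, the Ngp minimum, the CPM minimum and the added CPM. Leaving out cells with other markers, members with Ngp of 50 or more, abundant genes from the totals, and members under 5 Retnlg UMIs were added after seeing the data.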

Additional observations from a re-analysis of the deposited data

How the results depend on the processing

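No paired analysis was possible because the entries form 1 library, and leaving out an entry was not possible because the deposited counts pool them. The values have no replicate error, and depth limits genes under about 10 CPM. With 1600 genes per cell, members numbered 89, the gelatinase log2 ratio was 1.27, the ribosomal ratio reversed to 0.22, and 1577 genes were higher and 267 lower. The cause was not tested. Members with Ngp under 50 alone (279 cells) gave -3.42 for specific granule, 1.77 for gelatinase and -0.14 for ribosomal genes, and 1611 higher genes, 924 of them among the 970. With the Retnlg minimum at 10 the ratios were -0.92, 1.92 and -0.38, and at 50 they were -1.29, 2.07 and -0.64. Without Scrublet calls they were -1.04, 2.07 and -0.59, without cells carrying other markers -0.99, 2.10 and -0.67, and with totals lacking the abundant genes -1.30, 1.79 and -0.70, the last with 1356 genes lower. The mean over cells gave -1.46 for specific granule and -0.74 for ribosomal genes and 1234 lower genes. A limit of 5% mitochondrial UMIs gave -1.07 and -0.52, and myelocytes with Ngp of 100 gave -1.13 and -0.45. Without a CPM minimum 1615 genes were higher and 1269 lower, and with 10 CPM added 586 and 359. Requiring 5 Retnlg UMIs left the ratios within the counting intervals, with 554 members.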
